A study of Mus musculus with 10 samples.

Results

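The genes described here encode the pore-forming and auxiliary subunits of the voltage-gated sodium and calcium channels and of the potassium channels. They were chosen by name and by level: 120 genes in the deposited tables carry a name that starts with Scn, Cacna1, Cacna2d, Cacnb, Cacng or Kcn in the pattern used for these families, and 70 of them had a deposited mean of at least 10 normalised counts in every table that held the gene, out of 17575 genes in all. The level was thus selected on and is no finding. Just inside that limit stood Scn2b, with a lowest mean of 10.2, and Cacna2d3, with 11.0, and just outside it Kcnj14, with 9.51, and Cacna1e, with 8.56. RNA of heart tissue from 1 week old mice, described by the study as male, was sequenced in 3 WT, 3 Ft1ko and 4 Ft1sm22ko animals. Ft1, listed as Aktip, encodes a protein that acts at chromosome ends. In Ft1ko mice a floxed Ft1 allele was deleted by a Cre under the CMV promoter, which acts throughout the body. In Ft1sm22ko mice it was deleted by a Cre under the sm22 (Tagln) promoter, a smooth muscle promoter that is also known to be active in the muscle of the embryonic heart. The labels name no treatment and no further allele for the WT mice, and do not say whether litters were shared, so p-values measure the spread between these animals only.

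The heartbeat is shaped by the order in which these channels open. Sodium channels carry the upstroke of the action potential, L-type calcium channels carry the plateau and trigger contraction, and several potassium currents end it. In the mouse ventricle the fast transient outward current and the delayed rectifiers repolarise the cell, and inward rectifiers hold the resting potential. Many of these genes are still being switched on or off in the first weeks after birth, and atria and ventricles differ in which of them they use.

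The deposited tables hold only means over the hearts of 2 groups, but each heart enters 2 of the 3 tables. The digits of the means gave whole read counts per heart for 17208 genes, all 70 channel genes among them, and 367 abundant genes were not resolved. A normalised count is a read count divided by a factor for the depth of its library. Because the recovered hearts carry no replicate number, they are called a to c or a to d within a group, by rising depth factor, and values are given in that order throughout. Reads in recovered genes came to 2298136 to 5904368 in WT hearts, 7545967 to 11906800 in Ft1ko hearts and 9520668 to 18584088 in Ft1sm22ko hearts. WT values are thus the least precise, and depth moves with genotype. The channel genes took 0.456 to 0.502% of those reads in WT, 0.221 to 0.319% in Ft1ko and 0.336 to 0.418% in Ft1sm22ko hearts. Aktip was at 939, 1115 and 853 normalised counts in WT, 284, 273 and 204 in Ft1ko and 306, 350, 400 and 592 in Ft1sm22ko hearts, so each mutant heart was below every WT heart. A gene total does not show whether the remaining reads lie outside the deleted part.

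Several libraries stood apart. Reads from 4 Y-linked genes (Ddx3y, Kdm5d, Uty and Eif2s3y) were present in WT hearts b and c, in all 3 Ft1ko hearts and in Ft1sm22ko heart d, and came to 5 reads or fewer in WT heart a and Ft1sm22ko hearts a, b and c, although the study describes male animals. Of 8 lung epithelium markers, 6 had counts per heart, and their sum was 90.1 to 968 in WT, 16811, 42621 and 571 in Ft1ko and 36.2 to 1454 in Ft1sm22ko hearts. The 8 thymocyte markers summed to 87.6 to 161 in WT, to 92.7, 481 and 21831 in Ft1ko and to 39.6 to 392 in Ft1sm22ko hearts. The 4 of 7 atrial markers with counts summed to 536 to 733 in WT, 4956 to 5350 in Ft1ko and 2039 to 8721 in Ft1sm22ko hearts, and Sln and Mybphl, defining genes of atrial muscle, were at 0 to 20.6 in WT hearts. The 2 of 4 ventricular markers with counts, Irx4 and Hey2, summed to 1175 to 2179, 98.3 to 883 and 619 to 1135 in the 3 groups. The lower sums lay mainly in Irx4, and 1 of the 2 markers was called lower in each mutant. Hey2 was at 124, 100 and 117 in WT, at 208, 142 and 85.9 in Ft1ko and at 138, 157, 323 and 181 in Ft1sm22ko hearts. The 10 neuron and glia markers summed to 420 to 692 in WT, 466 to 2706 in Ft1ko and 291 to 1226 in Ft1sm22ko hearts. The 5 of 6 smooth muscle and pericyte markers with counts summed to 3420 to 5352, 7622 to 11660 and 6514 to 8182. The 6 of 8 skeletal muscle markers with counts summed to 10.8 to 235 in WT, 222 to 567 in Ft1ko and 105 to 248 in Ft1sm22ko hearts, and the 4 fat markers to 1038 to 1715, 1867 to 5554 and 993 to 2489. The 3 of 4 endothelial markers with counts summed to 8520 to 10486, 5787 to 13373 and 10896 to 12803, and Pdgfra, the 1 of 4 fibroblast markers with counts, was at 680 to 950, 657 to 1420 and 1136 to 1525. All 7 cardiomyocyte markers were among the genes not resolved per heart, and their deposited means ran from 20684 for Actn2 to 581624 for Myh6. The part of these mixtures in the results on channel genes was not tested. In bulk heart tissue, fewer cells of a type and less RNA per cell cannot be told apart.

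The 250 bases before the transcription start are shown for 5 of the channel genes on which the results turn, so that promoters of genes that fell can be read beside those of genes that rose. They come from RefSeq (GRCm38.p6), in which 49 of the 70 channel genes had a promoter entry. Capitals mark matches on either strand to a GC box (GGGCGG) or an E-box (CANNTG), and no marked matches overlap. Kcnip2 (chr19:45816064-45816313, minus strand), Kcnd2 (chr6:21215096-21215345, plus strand) and Kcna5 (chr6:126535556-126535805, minus strand) encode parts of repolarising potassium channels and were lower in Ft1ko hearts. Cacna2d2 (chr9:107399630-107399879, plus strand) and Kcnj15 (chr16:95257308-95257557, plus strand) were higher in both mutants.
Kcnip2: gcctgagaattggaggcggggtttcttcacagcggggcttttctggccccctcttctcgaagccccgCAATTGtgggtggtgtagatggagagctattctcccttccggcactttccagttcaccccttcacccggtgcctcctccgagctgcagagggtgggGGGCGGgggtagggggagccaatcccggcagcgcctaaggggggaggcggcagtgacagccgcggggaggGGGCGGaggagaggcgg
Kcnd2: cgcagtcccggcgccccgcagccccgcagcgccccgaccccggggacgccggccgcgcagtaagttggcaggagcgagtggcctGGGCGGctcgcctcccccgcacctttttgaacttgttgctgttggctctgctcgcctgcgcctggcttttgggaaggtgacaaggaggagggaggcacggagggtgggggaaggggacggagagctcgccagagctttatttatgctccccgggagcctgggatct
Kcna5: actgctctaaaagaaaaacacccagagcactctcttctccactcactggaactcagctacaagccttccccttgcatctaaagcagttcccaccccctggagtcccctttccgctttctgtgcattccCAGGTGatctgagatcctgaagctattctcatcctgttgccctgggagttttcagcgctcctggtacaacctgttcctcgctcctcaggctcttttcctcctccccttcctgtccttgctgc
Cacna2d2: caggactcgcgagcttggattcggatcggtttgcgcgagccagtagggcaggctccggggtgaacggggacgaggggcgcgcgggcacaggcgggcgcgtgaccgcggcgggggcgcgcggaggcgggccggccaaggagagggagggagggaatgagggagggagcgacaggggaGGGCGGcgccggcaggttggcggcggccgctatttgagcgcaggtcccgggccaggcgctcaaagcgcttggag
Kcnj15: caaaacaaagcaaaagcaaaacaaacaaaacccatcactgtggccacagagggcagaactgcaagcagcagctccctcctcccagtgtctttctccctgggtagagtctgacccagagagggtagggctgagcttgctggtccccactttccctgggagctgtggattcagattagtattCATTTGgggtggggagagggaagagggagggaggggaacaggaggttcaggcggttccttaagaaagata

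The Kcnip2 and Kcnd2 windows are rich in G and C, at 66.8% and 68.8%, and hold 2 and 1 GC boxes, whereas the Kcna5 window has 53.2% and none. The Cacna2d2 window, of a gene that rose, has 74.4% and 1 GC box, and the Kcnj15 window has 53.2% and none. A GC box was present in 32.9% of 27025 promoter windows of this length, in 6 of the 13 windows of channel genes lower in Ft1ko hearts and in 4 of the 9 of those higher. An E-box was present in 66.0% of all windows, in 10 of those 13 and in 5 of those 9. A TATA box (TATAAA) and a GATA site (AGATAA) were searched in the same way and were found in none of these 5 windows. These matches describe the sequence only.

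In Ft1ko hearts Kcnip2, Kcnd2 and Kcna5 of the repolarising potassium currents and the L-type calcium channel gene Cacna1c were lower than in WT hearts. A smaller set that includes Cacna2d2, Kcnj15 and Scn10a was higher. Of the 70 channel genes, 19 were lower and 10 higher in Ft1ko than in WT hearts, by limma on log2(normalised count + 1) with Benjamini-Hochberg adjustment over all genes tested and a threshold of 0.05. Over all 13854 genes tested, 13.9% were lower and 18.3% higher, 32.1% in all, against 41.4% of the channel genes. In Ft1sm22ko hearts 13 channel genes were lower and 7 higher than in WT, 28.6% in all, against 14.3% lower and 16.4% higher, 30.7% in all, of the 13704 genes tested. The share of channel genes that moved was thus near the background in Ft1sm22ko hearts. The median log2 fold change of the channel genes was -0.24 in Ft1ko and 0.03 in Ft1sm22ko, where that of all genes tested was 0.08 and 0.05. The 2 comparisons share the WT hearts. Side by side, 11 channel genes were lower in both, 5 higher in both, 8 lower and 5 higher in Ft1ko alone by this threshold, and 2 higher and 2 lower in Ft1sm22ko alone. The hearts did not overlap for 39 of 70 channel genes between Ft1ko and WT, where 49.9% of all genes tested did not overlap, and for 25 of 70 between Ft1sm22ko and WT, where the share was 43.0%.

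These counts depend in part on the scaling. With scaling to the total count, the median of all genes tested moved from 0.08 to 0.27 in Ft1ko and from 0.05 to 0.21 in Ft1sm22ko, and the channel genes called became 13 higher and 16 lower in Ft1ko and 12 and 12 in Ft1sm22ko. The share of higher calls was then 44.8% in place of 34.5% and 50% in place of 35.0%. No channel gene called in the fit given here changed its direction under any alternative that was run. The mean was at least 10 in just 1 of the 2 groups for 7 channel genes between Ft1ko and WT and for 5 between Ft1sm22ko and WT, among them Cacna2d3 and Scn2b in both comparisons and Kcnk1 in both. Cacna1s in Ft1ko (9.11 against 52.3 in WT) and Scn4b in Ft1sm22ko (6.01 against 34.2 in WT) also belong here. Such genes pass the limit through the group in which they are high, so their direction was in part selected on. Those called are included in the counts of higher and lower genes given above.

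**Figure D1:**
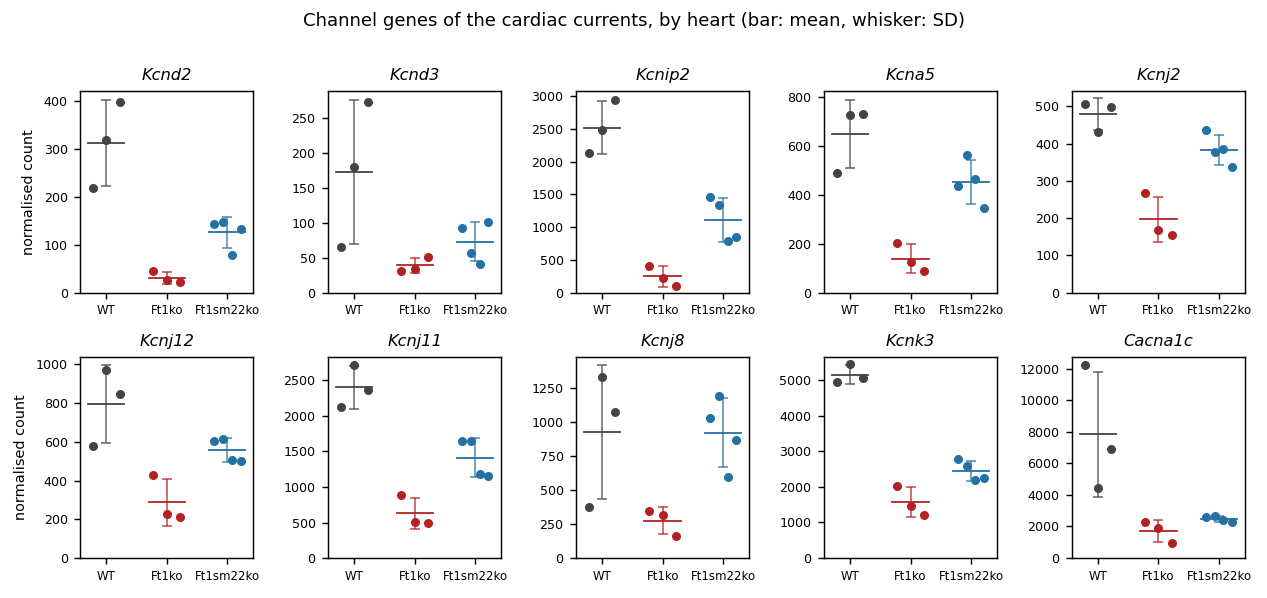
Normalised counts (y axis, from 0) of 10 genes of the cardiac currents in each heart (points) of WT, Ft1ko and Ft1sm22ko mice, with the mean (line) and SD (whisker) of each group. For Kcnip2 and Kcnd2 the 3 Ft1ko hearts lie below every Ft1sm22ko heart, and these below every WT heart.

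Each sodium channel holds 1 alpha subunit that forms the pore. Of 5 alpha genes, 2 were lower and 1 higher in Ft1ko, and 3 were lower and 1 higher in Ft1sm22ko hearts. Scn4a, the sodium channel of skeletal muscle, was at 165, 193 and 229 normalised counts in WT hearts, at 29.5, 18.3 and 18.9 in Ft1ko hearts and at 84.8, 81.6, 36.4 and 83.6 in Ft1sm22ko hearts. All mutant hearts lay below all WT hearts, in Ft1ko (log2 fold change -3.07 ± 0.36 (SE), adjusted p = 0.00166) and in Ft1sm22ko (log2 fold change -1.48 ± 0.33 (SE), adjusted p = 0.0114). Scn3a, a channel of embryonic neurons that the neonatal heart also transcribes, was at 148, 51.5 and 84.7 normalised counts in WT hearts, at 30.6, 46.7 and 18.9 in Ft1ko hearts and at 35.5, 35.1, 38.7 and 31.2 in Ft1sm22ko hearts, with log2 fold change -1.47 ± 0.52 (SE), adjusted p = 0.0601 in Ft1ko, and it fell in Ft1sm22ko (log2 fold change -1.26 ± 0.38 (SE), adjusted p = 0.0337). Scn10a, first known from sensory neurons and also transcribed in the heart, went the other way, from 74.2, 64.4 and 61.6 in WT to 183, 169 and 224 in Ft1ko and 216, 124, 148 and 266 in Ft1sm22ko hearts. It rose in both mutants without overlap with WT (log2 fold change 1.51 ± 0.29 (SE), adjusted p = 0.00716 and log2 fold change 1.45 ± 0.30 (SE), adjusted p = 0.00794). The neuron and glia marker sum was highest in Ft1ko heart c and Ft1sm22ko heart d, the hearts of each mutant group in which Scn10a was highest. In Ft1ko heart b and Ft1sm22ko heart c the sum was 466 and 291, against 420 to 692 in WT. Scn10a was at 169 and 148 in those hearts, above every WT heart. The part of this mixture in the rise was not tested.

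Among the 4 sodium channel beta subunits, which tune gating and adhesion, 2 were higher in Ft1ko and 1 lower in Ft1sm22ko hearts. Scn2b rose in Ft1ko from 4.12, 0 and 6.16 to 19.6, 15.8 and 103 (log2 fold change 3.10 ± 0.96 (SE), adjusted p = 0.0405), with heart c far above the others. The WT values rest on 5 reads, and the ratio of 13.7 had a 95% exact counting interval of 5.79 to 42.8. It was at 11.2, 26.5, 15.2 and 13.3 in Ft1sm22ko (log2 fold change 2.31 ± 0.83 (SE), adjusted p = 0.0606). Scn3b rose in Ft1ko from 45.3, 48.9 and 33.9 to 264, 867 and 105 (log2 fold change 2.74 ± 0.68 (SE), adjusted p = 0.0183), with the highest value in heart b, which had the highest lung marker sum. Scn4b, the beta subunit linked to the resurgent current, was at 49.4, 15.5 and 46.2 normalised counts in WT hearts, at 4.36, 3.33 and 133 in Ft1ko hearts and at 6.92, 8.65, 1.38 and 8.72 in Ft1sm22ko hearts. It was lower in Ft1sm22ko (log2 fold change -2.35 ± 0.71 (SE), adjusted p = 0.0345), while in Ft1ko 2 hearts were under 5 and heart c, the heart with the highest thymocyte, neuron and glia, and fat marker sums, was at 133 (log2 fold change -1.14 ± 1.23 (SE), adjusted p = 0.502).

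The L-type genes Cacna1c and Cacna1s were lower in both mutants. Of 6 alpha1 genes, 2 were lower and 1 higher in Ft1ko, and 2 lower in Ft1sm22ko hearts. Cacna1c, the pore of the cardiac L-type channel, was read at 12199, 4432 and 6876 normalised counts in WT hearts, at 2303, 1880 and 939 in Ft1ko hearts and at 2608, 2656, 2395 and 2256 in Ft1sm22ko hearts. WT heart a was far above the other WT hearts, yet all mutant hearts were below all WT hearts (log2 fold change -2.16 ± 0.44 (SE), adjusted p = 0.00907 in Ft1ko and log2 fold change -1.52 ± 0.31 (SE), adjusted p = 0.00745 in Ft1sm22ko). Cacna1s, the L-type channel of skeletal muscle, was at 98.9, 79.8 and 50.8 normalised counts in WT hearts, at 17.5, 12.5 and 9.76 in Ft1ko hearts and at 12.1, 27, 32.7 and 16.1 in Ft1sm22ko hearts. It fell in both (-2.38 ± 0.47, adjusted p = 0.00775, and -1.78 ± 0.44, adjusted p = 0.0167). Between Ft1ko and WT, the Cacna1s mean reached 10 only in WT (9.11 against 52.3). Its direction there was in part selected on. Cacna1d, the L-type channel of pacemaker and atrial cells, was at 124, 77.3 and 75.4 normalised counts in WT hearts, at 393, 1101 and 195 in Ft1ko hearts and at 140, 161, 115 and 134 in Ft1sm22ko hearts. It rose in Ft1ko (log2 fold change 2.28 ± 0.58 (SE), adjusted p = 0.0196), with heart b, the highest for lung markers, far above the others, and it was at 0.62 ± 0.26 on the log2 scale in Ft1sm22ko (adjusted p = 0.0936). The T-type genes Cacna1g and Cacna1h, which serve pacemaking and the fetal heart, did not pass in either comparison in the fit reported here. Cacna1g was at 2637, 999 and 835 normalised counts in WT hearts, at 825, 707 and 625 in Ft1ko hearts and at 1004, 1029, 951 and 770 in Ft1sm22ko hearts. Neither difference from WT passed (-0.86 ± 0.41, adjusted p = 0.141, in Ft1ko and -0.46 ± 0.36, adjusted p = 0.352, in Ft1sm22ko). Cacna1h was at 511, 304 and 342 normalised counts in WT hearts, at 465, 297 and 355 in Ft1ko hearts and at 452, 570, 601 and 461 in Ft1sm22ko hearts. The hearts of all groups overlapped (-0.03 ± 0.29, adjusted p = 0.944, in Ft1ko and 0.48 ± 0.22, adjusted p = 0.124, in Ft1sm22ko).

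The alpha2delta subunits, which carry calcium channels to the membrane, changed in opposite directions, and all 3 passed in both mutants. Of these, Cacna2d3 reached the limit on the mean only through the mutant hearts. On the scale of each comparison, its mean was 20.9 in Ft1ko against 1.28 in WT, and 17.9 in Ft1sm22ko against 1.75 in WT. A gene this low in WT is tested only if it is higher in the mutant, so its direction was in part selected on. Cacna2d1, the main cardiac form, was at 2237, 2840 and 3035 normalised counts in WT hearts, at 778, 742 and 394 in Ft1ko hearts and at 1152, 1382, 1219 and 998 in Ft1sm22ko hearts. It fell without overlap (log2 fold change -2.12 ± 0.30 (SE), adjusted p = 0.00276 in Ft1ko and log2 fold change -1.16 ± 0.18 (SE), adjusted p = 0.00288 in Ft1sm22ko). Cacna2d2 was at 4.12, 23.2 and 23.1 normalised counts in WT hearts, at 333, 510 and 777 in Ft1ko hearts and at 355, 348, 219 and 182 in Ft1sm22ko hearts. This was the steepest rise of any channel gene in either mutant (log2 fold change 5.10 ± 0.63 (SE), adjusted p = 0.00175 and log2 fold change 4.22 ± 0.54 (SE), adjusted p = 0.00164). Cacna2d3 was at 4.12, 0 and 1.54 normalised counts in WT hearts, at 24, 40.8 and 26 in Ft1ko hearts and at 27.7, 18.4, 5.99 and 24.3 in Ft1sm22ko hearts. With 2 reads over the WT hearts, its level was 19.5 times that of WT in Ft1ko (95% exact counting interval 5.26 to 163) and 11.5 times in Ft1sm22ko (3.12 to 95.9), intervals that cover counting error only, and the test called it higher in both (adjusted p = 0.0114 and 0.0318). The rises of Cacna2d2 and Cacna2d3 stand beside that of the atrial marker sum, which was also higher in every mutant heart than in every WT heart. The smooth muscle and pericyte marker sum was separated in the same way. The part of either mixture in these rises was not tested. Cacnb2, the main cardiac beta subunit, was at 1450, 901 and 1041 normalised counts in WT hearts, at 720, 618 and 322 in Ft1ko hearts and at 793, 710, 868 and 585 in Ft1sm22ko hearts. It fell in Ft1ko (log2 fold change -1.07 ± 0.34 (SE), adjusted p = 0.0429), with log2 fold change -0.58 ± 0.21 (SE), adjusted p = 0.0697 in Ft1sm22ko. None of the other 3 beta genes passed in either mutant. Cacng7, a gamma subunit, rose in both (1.94 ± 0.55, adjusted p = 0.0294, and 1.76 ± 0.46, adjusted p = 0.0201), and Cacng6 passed in neither.

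Kcnip2 and Kcnd2, genes of the fast transient outward current, fell most among the channel genes in Ft1ko hearts. Kcnip2, the subunit that brings Kv4 channels to the membrane, was read at 2126, 2485 and 2933 normalised counts in WT hearts, at 415, 222 and 108 in Ft1ko hearts and at 1454, 1344, 783 and 848 in Ft1sm22ko hearts. The groups did not overlap, and the difference passed in Ft1ko (log2 fold change -3.52 ± 0.44 (SE), adjusted p = 0.00181) and in Ft1sm22ko (log2 fold change -1.20 ± 0.25 (SE), adjusted p = 0.00848). Kcnd2, which encodes the Kv4.2 pore, was at 218, 319 and 397 normalised counts in WT hearts, at 45.8, 27.5 and 21.5 in Ft1ko hearts and at 143, 148, 79.3 and 133 in Ft1sm22ko hearts. The 3 groups were again separate (log2 fold change -3.26 ± 0.40 (SE), adjusted p = 0.00172 and log2 fold change -1.28 ± 0.29 (SE), adjusted p = 0.0118). Kcnd3, which encodes the Kv4.3 pore, was at 65.9, 180 and 273 normalised counts in WT hearts, at 31.6, 34.2 and 51.4 in Ft1ko hearts and at 93.4, 57.3, 41.9 and 101 in Ft1sm22ko hearts. It fell in Ft1ko (log2 fold change -1.91 ± 0.54 (SE), adjusted p = 0.0298), while in Ft1sm22ko its hearts overlapped those of WT (log2 fold change -1.07 ± 0.49 (SE), adjusted p = 0.126). Kcna4, the pore of the slow transient outward current, was at 53.6, 87.6 and 37 normalised counts in WT hearts, at 68.7, 42.5 and 54 in Ft1ko hearts and at 67.5, 88.6, 124 and 62.4 in Ft1sm22ko hearts. The hearts overlapped and neither comparison passed (-0.04 ± 0.44, adjusted p = 0.954, and 0.58 ± 0.37, adjusted p = 0.259).

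Delayed rectifiers repolarise the mouse ventricle more slowly. The class of 18 voltage-gated potassium alpha genes holds their pores together with Kcnd2, Kcnd3 and Kcna4, given above. Of these 18, 5 were lower in Ft1ko, Kcnd2 and Kcnd3 among them, and 2 in Ft1sm22ko, Kcnd2 among them. None was higher in either mutant. Kcna5, the pore of the ultra-rapid component, was at 490, 729 and 734 normalised counts in WT hearts, at 204, 126 and 89.1 in Ft1ko hearts and at 439, 563, 465 and 348 in Ft1sm22ko hearts. It was lower without overlap in Ft1ko (log2 fold change -2.26 ± 0.35 (SE), adjusted p = 0.00344), with log2 fold change -0.49 ± 0.22 (SE), adjusted p = 0.113 in Ft1sm22ko. Kcng2, a modifier subunit that forms no channel alone, was at 1533, 2423 and 2524 normalised counts in WT hearts, at 1123, 452 and 478 in Ft1ko hearts and at 1891, 1632, 1984 and 1249 in Ft1sm22ko hearts. It fell in Ft1ko (log2 fold change -1.75 ± 0.39 (SE), adjusted p = 0.0118), with log2 fold change -0.32 ± 0.23 (SE), adjusted p = 0.321 in Ft1sm22ko. The rapid and slow delayed rectifiers of larger mammals are built from Kcnh2, Kcnq1 and Kcne1. Kcnh2 was at 2884, 2261 and 2348 normalised counts in WT hearts, at 2158, 1322 and 1364 in Ft1ko hearts and at 2181, 1961, 2164 and 1962 in Ft1sm22ko hearts. It passed in neither mutant (-0.65 ± 0.26, adjusted p = 0.0858, in Ft1ko and -0.24 ± 0.16, adjusted p = 0.273, in Ft1sm22ko). Kcnq1 was at 321, 644 and 580 normalised counts in WT hearts, at 636, 376 and 267 in Ft1ko hearts and at 705, 647, 848 and 562 in Ft1sm22ko hearts. This gene, too, passed in neither (-0.29 ± 0.39, adjusted p = 0.586, in Ft1ko and 0.49 ± 0.26, adjusted p = 0.172, in Ft1sm22ko). Kcne1, the partner of Kcnq1 in the slow current, was at 1257, 1998 and 958 normalised counts in WT hearts, at 1352, 591 and 34.5 in Ft1ko hearts and at 2687, 2842, 2827 and 1752 in Ft1sm22ko hearts. It rose in Ft1sm22ko (log2 fold change 0.91 ± 0.27 (SE), adjusted p = 0.0337), and in Ft1ko it ran from 1352 in heart a, within the WT range, down to 34.5 in heart c (log2 fold change -2.12 ± 1.14 (SE), adjusted p = 0.185). Of the 8 auxiliary potassium genes, 1 was lower in Ft1ko and 1 lower and 1 higher in Ft1sm22ko, namely Kcnip2 and Kcne1.

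Inward rectifiers pass potassium most readily near rest. Of 7 genes, 4 were lower and 1 higher in Ft1ko, and 1 lower and 1 higher in Ft1sm22ko hearts. Kcnj2, the main pore of the current that sets the resting potential, was at 507, 430 and 499 normalised counts in WT hearts, at 267, 167 and 156 in Ft1ko hearts and at 436, 376, 384 and 338 in Ft1sm22ko hearts. It was lower without overlap in Ft1ko (log2 fold change -1.31 ± 0.28 (SE), adjusted p = 0.00997), with log2 fold change -0.30 ± 0.16 (SE), adjusted p = 0.195 in Ft1sm22ko. Kcnj12, its partner pore, was at 577, 971 and 845 normalised counts in WT hearts, at 429, 227 and 211 in Ft1ko hearts and at 606, 617, 508 and 503 in Ft1sm22ko hearts. It fell in Ft1ko, while Ft1sm22ko hearts overlapped those of WT (log2 fold change -1.49 ± 0.34 (SE), adjusted p = 0.0131 in Ft1ko and log2 fold change -0.46 ± 0.20 (SE), adjusted p = 0.11 in Ft1sm22ko). Kcnj11, the pore of the ATP-sensitive channel of heart muscle, was at 2122, 2719 and 2362 normalised counts in WT hearts, at 883, 502 and 498 in Ft1ko hearts and at 1640, 1650, 1189 and 1159 in Ft1sm22ko hearts. It fell in both (log2 fold change -1.97 ± 0.28 (SE), adjusted p = 0.00259 and log2 fold change -0.76 ± 0.19 (SE), adjusted p = 0.0176). Kcnj8, the ATP-sensitive pore of vascular smooth muscle and pericytes, was at 379, 1331 and 1070 normalised counts in WT hearts, at 344, 317 and 159 in Ft1ko hearts and at 1033, 1188, 598 and 867 in Ft1sm22ko hearts. It fell in Ft1ko (log2 fold change -1.64 ± 0.50 (SE), adjusted p = 0.0392), while Ft1sm22ko hearts lay within the WT range (log2 fold change 0.16 ± 0.41 (SE), adjusted p = 0.795). Of the 5 smooth muscle and pericyte markers tested, 4 were higher and 1 lower in Ft1ko, and 3 were higher in Ft1sm22ko. The lower one was Rgs5, a pericyte gene, at 1920, 1022 and 1283 normalised counts in WT hearts, at 731, 905 and 643 in Ft1ko hearts and at 3061, 3790, 2989 and 2277 in Ft1sm22ko hearts. Rgs5 fell in Ft1ko (log2 fold change -0.85 ± 0.28 (SE), adjusted p = 0.0492) and rose in Ft1sm22ko (log2 fold change 1.15 ± 0.25 (SE), adjusted p = 0.0102), against the direction of the marker sum in Ft1ko, and the part of these cells in the Kcnj8 values was not tested. The acetylcholine-gated pair of atria and sinus node, Kcnj3 and Kcnj5, did not pass. Kcnj3 was at 461, 1195 and 835 normalised counts in WT hearts, at 1185, 1124 and 1690 in Ft1ko hearts and at 2374, 1835, 601 and 1761 in Ft1sm22ko hearts. WT heart b lay among the mutant hearts (0.77 ± 0.37, adjusted p = 0.138, in Ft1ko and 0.95 ± 0.47, adjusted p = 0.152, in Ft1sm22ko). Kcnj5 was at 713, 1576 and 1209 normalised counts in WT hearts, at 963, 892 and 973 in Ft1ko hearts and at 1903, 1763, 973 and 1181 in Ft1sm22ko hearts. The 3 groups overlapped (-0.22 ± 0.31, adjusted p = 0.595, in Ft1ko and 0.36 ± 0.31, adjusted p = 0.402, in Ft1sm22ko). Kcnj15, an inward rectifier known from kidney and other epithelia, was at 8.24, 43.8 and 32.3 normalised counts in WT hearts, at 184, 516 and 285 in Ft1ko hearts and at 213, 176, 101 and 324 in Ft1sm22ko hearts. It rose in both (log2 fold change 3.63 ± 0.64 (SE), adjusted p = 0.00542 and log2 fold change 2.99 ± 0.57 (SE), adjusted p = 0.00596). Its highest values fell in Ft1ko heart b and Ft1sm22ko heart d, the hearts of each mutant group with the highest lung marker sum. Ft1ko heart c, with a lung marker sum of 571, was at 285, and heart a, with 16811, at 184. In WT it was lowest in heart a, on 2 reads, which had the highest lung marker sum of that group. The atrial marker sum was also higher in every mutant heart than in every WT heart. The part of these mixtures in the Kcnj15 rise was not tested.

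The tandem-pore (K2P) channels carry background potassium current, and 2 of 6 were higher and 1 lower in Ft1ko, and 1 lower in Ft1sm22ko hearts. Kcnk3, the main one in heart and lung vessels, was at 4952, 5446 and 5066 normalised counts in WT hearts, at 2030, 1472 and 1220 in Ft1ko hearts and at 2778, 2575, 2185 and 2253 in Ft1sm22ko hearts. The WT hearts were close together and above all others (log2 fold change -1.73 ± 0.25 (SE), adjusted p = 0.00275 and log2 fold change -1.06 ± 0.16 (SE), adjusted p = 0.00286). Kcnk1 reached a mean of 10 only in the mutant hearts, so its direction against WT was in part selected on. It rose in Ft1ko from 0, 10.3 and 9.24, on 10 reads, to 84, 103 and 41.6 (log2 fold change 3.68 ± 0.88 (SE), adjusted p = 0.0156), and was at 6.06, 2.7, 13.4 and 44.1 in Ft1sm22ko (log2 fold change 1.22 ± 1.14 (SE), adjusted p = 0.436). Kcnk5 rose in Ft1ko from 20.6, 15.5 and 21.6 to 65.5, 114 and 75.5 (log2 fold change 2.05 ± 0.42 (SE), adjusted p = 0.00883). For both genes heart b, the highest for lung markers, was the highest Ft1ko heart. Kcnk1 followed the order of the lung marker sum over the Ft1ko hearts. For Kcnk5, heart c, the lowest of them for lung markers, was above heart a. The part of lung tissue in these rises was not tested. Among the 7 calcium- or sodium-activated channel genes, 2 were lower in Ft1ko, and 1 lower and 1 higher in Ft1sm22ko. Kcnn2, a small-conductance channel of atrial and pacemaker cells, was at 260, 229 and 271 normalised counts in WT hearts, at 111, 64.2 and 56 in Ft1ko hearts and at 112, 103, 106 and 84.9 in Ft1sm22ko hearts. It fell in both (log2 fold change -1.75 ± 0.33 (SE), adjusted p = 0.00692 and log2 fold change -1.29 ± 0.20 (SE), adjusted p = 0.003). The atrial marker sum was above every WT heart in both mutants, and of the 4 atrial markers tested 4 were higher in Ft1ko and 3 in Ft1sm22ko, where Nr2f2 overlapped WT. The part of this mixture in the Kcnn2 values was not tested. Kcnn1 fell in Ft1ko (log2 fold change -2.04 ± 0.62 (SE), adjusted p = 0.0377) and Kcnn3 rose in Ft1sm22ko from 82.4, 41.2 and 40 to 109, 112, 135 and 136 (log2 fold change 1.26 ± 0.31 (SE), adjusted p = 0.0162).

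**Figure D2:**
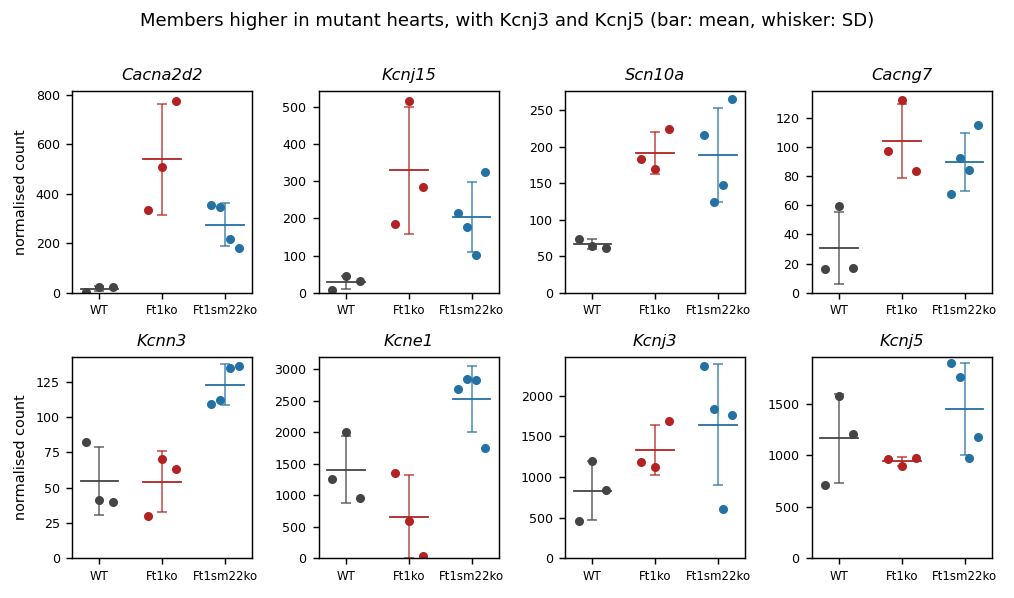
Normalised counts (y axis, from 0) in each heart (points) of 6 genes that rose in at least 1 mutant and of Kcnj3 and Kcnj5, with the mean (line) and SD (whisker) of each group. Cacna2d2, Kcnj15 and Scn10a are higher in every mutant heart than in every WT heart, while Kcnj3 and Kcnj5 overlap between groups.

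Some of these calls were lost with 1 heart left out, a setting that leaves fewer hearts for every gene. Of all 13854 genes tested, 2530 were higher and 1919 lower in Ft1ko with every heart in. Without WT heart c the counts were 1491 and 975, and without Ft1ko heart b 1478 and 1053. Leaving out WT heart a raised them to 3033 and 2565. A lost call alone thus does not show that it rested on that heart. In Ft1ko, 17 of the 29 calls held whichever heart was left out and under every other alternative but the Bonferroni adjustment, which left none at an adjusted p below 0.05 (15 higher and 22 lower at an unadjusted p below 0.05). The call for Cacna1d was lost without WT heart b or c or Ft1ko heart a (adjusted p from 0.0529 to 0.0687). That for Cacna2d3 was lost without Ft1ko heart b (adjusted p = 0.0529), for Cacnb2 without WT heart a or b or c or Ft1ko heart b or c (adjusted p from 0.0644 to 0.104) and for Cacng7 without WT heart a or c or Ft1ko heart a or b or c (adjusted p from 0.052 to 0.106). Kcnd3 lost its call without WT heart b or c or Ft1ko heart a or b (adjusted p from 0.0896 to 0.114), Kcng2 without WT heart c or Ft1ko heart b (adjusted p from 0.0502 to 0.0511), Kcnj12 without WT heart b or c or Ft1ko heart b (adjusted p from 0.0503 to 0.055) and Kcnj8 without WT heart b or c or Ft1ko heart a or b or c (adjusted p from 0.0638 to 0.129). Kcnk1 lost it without Ft1ko heart a or b (adjusted p from 0.0575 to 0.0651), Kcnn1 without WT heart b or c or Ft1ko heart b or c (adjusted p from 0.0986 to 0.137), Scn2b without WT heart b or c or Ft1ko heart a or b or c (adjusted p from 0.0608 to 0.103) and Scn3b without WT heart c or Ft1ko heart a (adjusted p from 0.0525 to 0.064). Of these, Cacna1d, Scn2b and Scn3b were also not called with voom weights, Cacnb2, Kcnj8 and Kcnn1 not with scaling to the total count, and Cacnb2 not with upper quartile scaling. Conversely, without Ft1ko heart c Scn4b was lower (-2.70, adjusted p = 0.0283) and without Ft1ko heart a Kcnh2 was lower (-0.87, adjusted p = 0.0456).

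In Ft1sm22ko, 10 of the 20 calls held in the same way, among them Cacna1c, Cacna2d1, Cacna2d2, Kcnd2, Kcnip2 and Kcnk3. Cacna2d3 lost its call without WT heart b or c or Ft1sm22ko heart a or b or d (adjusted p from 0.0659 to 0.108), Cacng7 without WT heart c or Ft1sm22ko heart b or d (adjusted p from 0.052 to 0.0708) and Kcne1 without WT heart c or Ft1sm22ko heart a or b or c (adjusted p from 0.0789 to 0.122). Kcnj11 lost it without WT heart b or c or Ft1sm22ko heart d (adjusted p from 0.0502 to 0.0532), Kcnn3 without WT heart c (adjusted p = 0.0571) and Scn3a without WT heart a or c or Ft1sm22ko heart a or b or c or d (adjusted p from 0.057 to 0.0837). Scn4b lost it without WT heart a or c or Ft1sm22ko heart a or b or c (adjusted p from 0.0554 to 0.121). Kcnj15 and Scn10a held whichever heart was left out and were, like Cacna2d3, not called with voom weights, and Kcne1 and Scn4b were not called with all 10 hearts in 1 fit. Of all 13704 genes tested, 2248 were higher and 1963 lower with every heart in, and 2914 and 2638 without WT heart a. Without WT heart a, 13 channel genes were higher and 16 lower. Among them, Kcnd3 (-1.64, adjusted p = 0.0104), Kcna5 (-0.68, adjusted p = 0.0203) and Kcnj12 (-0.67, adjusted p = 0.0076) were then lower, and Cacna1d (0.86, adjusted p = 0.0131) and Cacna1h (0.71, adjusted p = 0.0108) higher. Without WT heart c, the counts of channel genes were 3 higher and 9 lower, and without Ft1sm22ko heart b 4 and 10. Over all genes tested they were 1552 and 1353, and 1551 and 1335. Without Ft1sm22ko heart c, Kcnj3 was higher (1.37, adjusted p = 0.0245), and without WT heart b Cacnb2 was lower (-0.73, adjusted p = 0.0473). In Ft1ko, the number of higher channel genes was 6 without WT heart c, 5 without Ft1ko heart a and 6 without Ft1ko heart b. Over all genes tested it was 1491, 1652 and 1478, where 2530 were higher with every heart in.

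Whether the 2 mutants differ was tested directly. Channel genes were higher in Ft1sm22ko than in Ft1ko hearts in 14 of 70 cases and lower in none, where 6.16% of the 14831 genes tested were higher and 3.59% lower, 9.76% in all. At an unadjusted p below 0.05, 24 were higher and 11 lower, and limma-voom called 12 higher and none lower. The median log2 fold change was 0.32, and -0.04 over all genes tested, and the hearts did not overlap for 22 of 70 channel genes and for 27.5% of all genes tested. Among the 14 were Kcnip2 (log2 fold change 2.33 ± 0.43 (SE), adjusted p = 0.0291), Kcnd2 (log2 fold change 2.02 ± 0.35 (SE), adjusted p = 0.0279), Kcnj8 (log2 fold change 1.80 ± 0.32 (SE), adjusted p = 0.0281), Kcna5 (log2 fold change 1.78 ± 0.29 (SE), adjusted p = 0.0279) and Scn4a (log2 fold change 1.63 ± 0.39 (SE), adjusted p = 0.0407), followed by Kcng2, Kcnn1, Kcnn3, Kcnj11, Kcnj12, Kcnj2 and Cacna2d1 with log2 fold changes from 0.97 to 1.43. In 4 of the 7 inward rectifiers and 4 of the 18 voltage-gated potassium alpha genes the Ft1sm22ko level was the higher one. Cacna1c was at 0.65 ± 0.28 (adjusted p = 0.145), Kcnk3 at 0.68 ± 0.19 (adjusted p = 0.058), Kcnd3 at 0.86 ± 0.38 (adjusted p = 0.149) and Kcne1 at 3.05 ± 1.05 (adjusted p = 0.0897), none of which passed. Scn10a was at -0.06 ± 0.28 (adjusted p = 0.896), Cacna2d2 at -0.92 ± 0.35 (adjusted p = 0.111) and Kcnj15 at -0.66 ± 0.44 (adjusted p = 0.332), so for these genes no difference between the mutants was shown.

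Each of the 14 direct calls was lost under at least 1 alternative besides the Bonferroni adjustment. The adjusted p of the 14 genes ran from 0.0279 to 0.0473. None of the 14 was called without Ft1ko heart b (adjusted p from 0.0934 to 0.124), without Ft1sm22ko heart a (0.107 to 0.133) or without Ft1sm22ko heart b (0.109 to 0.14), and 5, 7, 12 and 14 were still called without Ft1ko heart c, Ft1sm22ko heart c, Ft1sm22ko heart d and Ft1ko heart a. With any 1 heart left out, the 14 log2 fold changes were at least 0.66. Without Ft1ko heart c, 6 channel genes were higher and 4 lower, the lower ones including Cacna1d, Scn3b and Scn7a, and without Ft1sm22ko heart d 12 were higher and 2, Kcnk1 and Scn3b, lower. Of all genes tested, 374 were higher and 522 lower without Ft1ko heart c, and 967 and 1134 without Ft1sm22ko heart d. Without Ft1ko heart a, Kcne1, Kcnh2, Kcnk3 and Kcnq1 were also higher (adjusted p from 0.0246 to 0.0382). Without Ft1ko heart b, Ft1sm22ko heart a or Ft1sm22ko heart b no channel gene was called at all, with 18, 19 and 18 higher at an unadjusted p below 0.05. Of all 14831 genes tested, limma called 1447 between the mutants with every heart in, 7 without Ft1ko heart b and 0 without Ft1sm22ko heart a or b (3608 and 3459 at an unadjusted p below 0.05). All 3 Ft1ko hearts and 1 of 4 Ft1sm22ko hearts had Y-linked reads. With these reads as a term of the fit, none of the 70 channel genes passed (11 higher and 2 lower at an unadjusted p below 0.05), nor did any of the 14831 genes (1283 at an unadjusted p below 0.05), and the adjusted p of the 14 was 0.562 to 0.633 with log2 fold changes of 0.60 to 2.11. Against WT, the same term left 17 of the 20 Ft1sm22ko calls, without Cacna2d3, Kcne1 and Scn4b. Of all 13704 genes tested, 2321 were higher and 2116 lower with this term, and 2248 and 1963 without it. With it, 8 channel genes were higher and 15 lower in all, where 7 and 13 were without it. Among those added, Cacna1g (-0.84, adjusted p = 0.0383) and Cacnb2 (-0.79, adjusted p = 0.0118) were lower. Restricting Ft1ko against WT to hearts with Y-linked reads, which leaves out WT heart a, kept 27 of 29, without Cacnb2 and Cacng7. That fit called 12 channel genes higher and 20 lower in all. Of all 13854 genes tested, it called 3033 higher and 2565 lower, where 2530 and 1919 were called with every heart in.

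**Figure D3:**
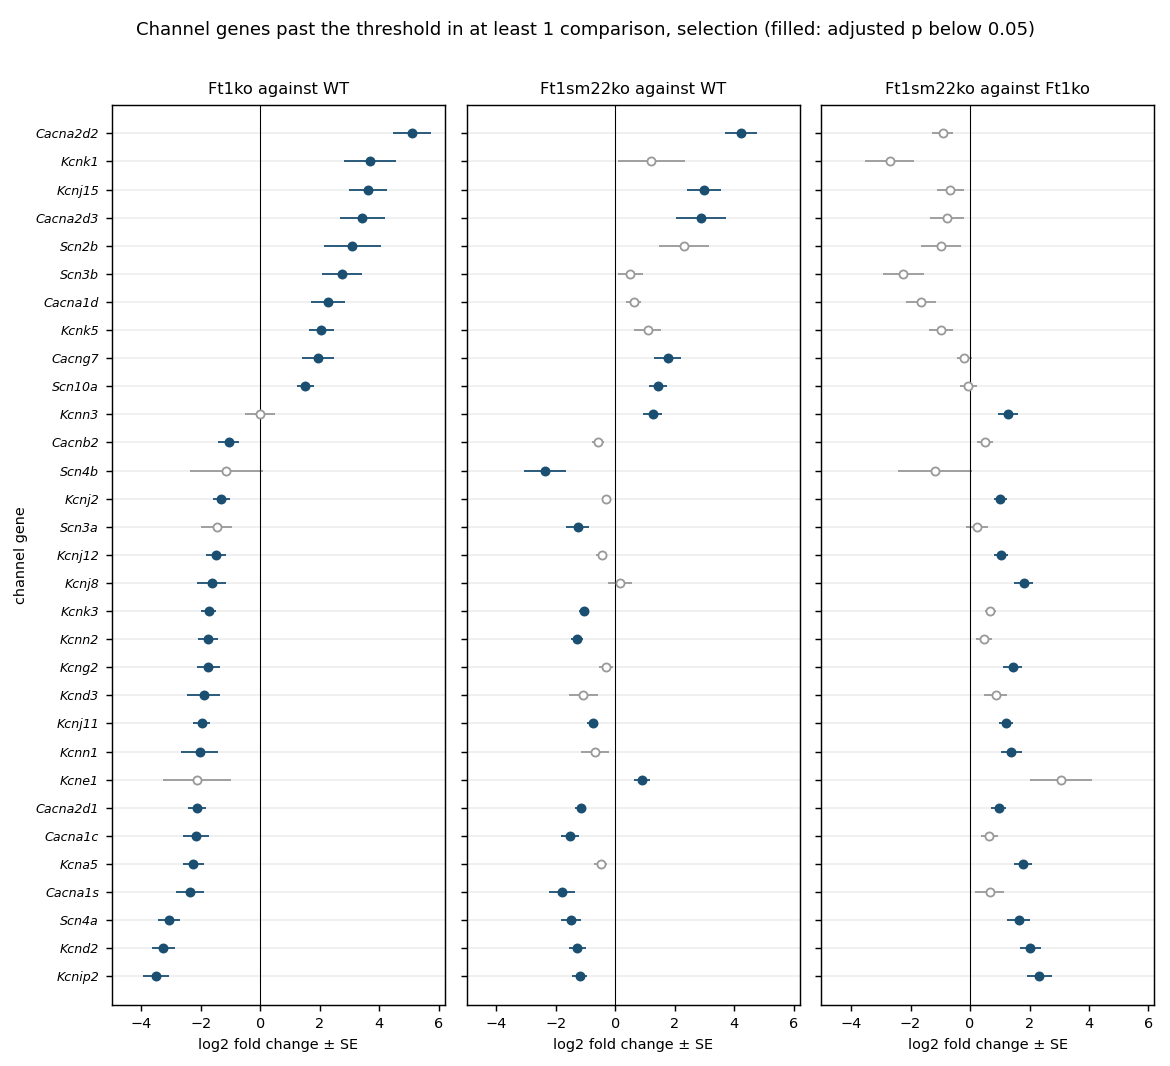
Log2 fold change with SE (x axis) of the channel genes (rows) shown among those that passed the threshold in at least 1 comparison, filled where the adjusted p was below 0.05 and open otherwise, in the order of the Ft1ko values. For those that passed as lower in Ft1ko, the values in Ft1sm22ko against WT are closer to 0 or above it, and all filled points in the direct comparison lie above 0.

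A further set of channel genes was set apart by 1 Ft1ko heart, and the genes named here beyond those above were chosen after their values were seen. Scn7a, a sodium-sensing channel of glia and lung, was at 284, 250 and 459 normalised counts in WT hearts, at 1269, 5585 and 182 in Ft1ko hearts and at 430, 362, 193 and 475 in Ft1sm22ko hearts. Ft1ko heart b was far above heart a and heart a above heart c, the order of the lung marker sum. It did not pass against WT (adjusted p = 0.216), and did without heart c (log2 fold change 3.06, adjusted p = 0.0148). Kcnab2, a beta subunit of Kv1 channels, was at 57.7, 43.8 and 18.5 normalised counts in WT hearts, at 79.7, 100 and 742 in Ft1ko hearts and at 43.3, 50.3, 64.5 and 74.4 in Ft1sm22ko hearts and Kcnn4, a calcium-activated channel of blood cells and epithelia, at 28.8, 7.73 and 16.9 normalised counts in WT hearts, at 41.5, 55 and 387 in Ft1ko hearts and at 24.2, 18.4, 17.5 and 56.5 in Ft1sm22ko hearts. Here Ft1ko heart c was far above every other heart. Its marker sums for thymocytes (21831), for neurons and glia (2706) and for fat (5554) were also the highest of the 10 hearts. Neither gene passed (adjusted p = 0.0681 and 0.056), though Kcnab2 did with all 10 hearts in 1 fit (adjusted p = 0.0249), and Kcnn4 in that fit, with scaling to the total count and without WT heart a (adjusted p from 0.0257 to 0.0493). In Ft1ko, 6 channel genes were over 2 times every other heart of the group in heart b, 6 in heart c and 4 in heart a. The same counts were 7, 3 and 1 in WT hearts and 0, 0, 1 and 4 in Ft1sm22ko hearts. The share over all genes was not examined, so these counts do not set channel genes apart from other genes. The part of single hearts in the group differences was not tested beyond leaving out each heart.

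**Figure D4:**
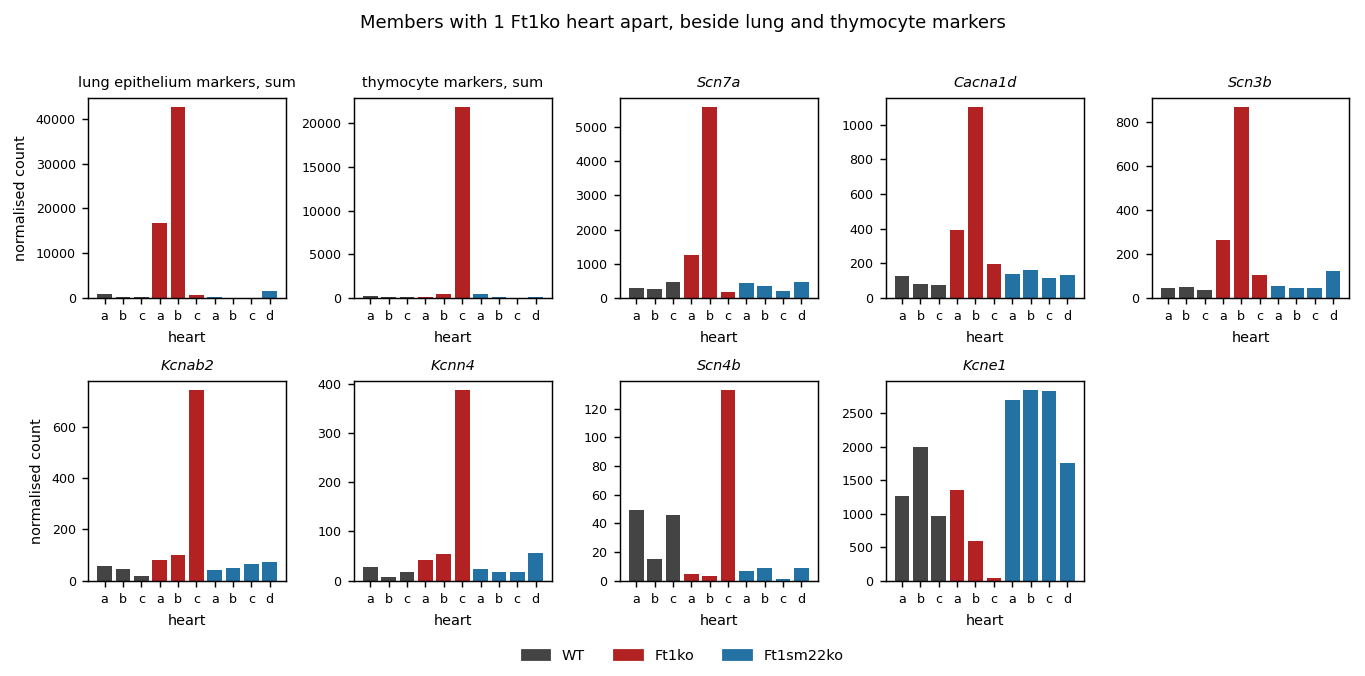
Normalised counts (y axes, from 0) in each of the 10 hearts (bars, lettered within the group and coloured by it) of the summed lung epithelium and thymocyte markers and of 7 channel genes. Scn7a, Cacna1d and Scn3b peak in Ft1ko heart b with the lung sum of 42621, Kcnab2, Kcnn4 and Scn4b peak in Ft1ko heart c with the thymocyte sum of 21831 (its neuron and glia sum of 2706 and fat sum of 5554, also the highest, are not plotted), and Kcne1 is lowest there.

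Genes that work with these channels were examined beside them. Of a list of 37 partners, 26 were tested against WT, 8 were not resolved per heart and 3 fell below the limit on the mean. In Ft1ko 6 were higher and 8 lower (median log2 fold change -0.76), where 32.1% of all genes tested were called in either direction. In Ft1sm22ko 5 were higher and 4 lower (-0.06), a share near the 30.7% of all genes. Between the mutants 4 of 28 were higher and 1 lower in Ft1sm22ko (0.23), against 9.76% of all genes. Fgf12, which binds sodium channels and shifts their inactivation, was at 33, 7.73 and 7.7 normalised counts in WT hearts, at 878, 533 and 1113 in Ft1ko hearts and at 924, 740, 330 and 861 in Ft1sm22ko hearts. It rose in both mutants (log2 fold change 5.83 ± 0.56 (SE), adjusted p = 0.0011 and log2 fold change 5.61 ± 0.54 (SE), adjusted p = 0.00062). Fgf13, its relative, was higher in Ft1sm22ko than in Ft1ko (log2 fold change 1.43 ± 0.29 (SE), adjusted p = 0.0318). Hcn4, the pacemaker channel of the sinus node, was at 20.6, 54.1 and 26.2 normalised counts in WT hearts, at 106, 268 and 257 in Ft1ko hearts and at 139, 231, 126 and 73.5 in Ft1sm22ko hearts. It rose in both (log2 fold change 2.60 ± 0.52 (SE), adjusted p = 0.0079 and log2 fold change 2.08 ± 0.44 (SE), adjusted p = 0.00934), and Hcn2, the ventricular form, fell in Ft1ko (log2 fold change -3.57 ± 0.59 (SE), adjusted p = 0.00444). Gja5, the connexin of atria and conduction tissue, rose in both (2.16 ± 0.32, adjusted p = 0.00296, and 1.35 ± 0.31, adjusted p = 0.0124), as did the transcription factor Tbx5 (1.67 ± 0.21, adjusted p = 0.00184, and 0.73 ± 0.23, adjusted p = 0.0384). Tbx5 was lower in Ft1sm22ko than in Ft1ko (-0.94 ± 0.23, adjusted p = 0.0409). The rises of Fgf12, Hcn4, Gja5 and Tbx5 stand beside the higher atrial and smooth muscle and pericyte marker sums of the mutant hearts. The part of these mixtures in them was not tested. The ankyrin Ank2, which holds ion transporters in the membrane, fell in Ft1ko (-1.44 ± 0.27, adjusted p = 0.00647) and was higher in Ft1sm22ko than in Ft1ko (1.02 ± 0.17, adjusted p = 0.0279). Ank3 fell in both (-0.87 ± 0.20, adjusted p = 0.0127, and -0.83 ± 0.18, adjusted p = 0.0107), and the scaffold Akap9 fell in Ft1sm22ko (-1.05 ± 0.26, adjusted p = 0.0162). Abcc9, the sulfonylurea receptor that joins Kcnj8 and Kcnj11, was at 3065, 4707 and 4231 normalised counts in WT hearts, at 1441, 1157 and 467 in Ft1ko hearts and at 3692, 3986, 4342 and 2602 in Ft1sm22ko hearts. It fell in Ft1ko (log2 fold change -2.09 ± 0.42 (SE), adjusted p = 0.00811) and was higher in Ft1sm22ko than in Ft1ko (log2 fold change 1.98 ± 0.37 (SE), adjusted p = 0.0294), as was Rrad, an inhibitor of L-type channels (log2 fold change 1.14 ± 0.24 (SE), adjusted p = 0.0325). The 5 direct calls, those of Fgf13, Tbx5, Ank2, Abcc9 and Rrad, were lost without Ft1sm22ko heart a, without Ft1sm22ko heart b and with Y-linked reads as a term, since no gene at all passed there.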

How the data were processed

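Paired-end RNA-seq of 10 hearts was aligned by the authors with STAR, and reads were counted per gene with HTSeq. StringTie is named in the submitters' processing notes, as is the build hg38, although the gene symbols are those of mouse. The authors fitted DESeq2 to each pair of groups. The deposited mean signal per gene, the only column used, averages the depth-corrected counts of all hearts in that pair. The other columns of the 3 tables (fold change, its standard error, statistic, p-value and adjusted p) hold the authors' comparisons and were not used.

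The means are printed to 15 digits, and integer relations among the lowest values gave the weight of each heart. Whole counts per heart then followed for 97.83 to 97.9% of the genes of each table, matching each mean to a relative gap of at most 5.3e-15. Counts solved from single tables were identical in shared hearts for all of 845, 1284 and 927 genes. Size factors recomputed from the counts differed by at most 0.91%. On simulated data, weights were found in 2 of 3 series, with no wrong count among 16930 and 16952 recovered genes, and the third stopped without weights. The group of a heart follows from the tables it enters, but its replicate number does not.

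limma 3.58.1 (R 4.3.3, trended variance) was fitted to log2(normalised count + 1) of the 2 groups compared, with the authors' size factors, on recovered genes with a deposited mean of at least 10, with Benjamini-Hochberg adjustment and a threshold of 0.05, all tests 2-sided. Values per heart are on 1 median-of-ratios scale over the 10 hearts. Fold changes are on the log2(value + 1) scale and understate changes of low genes. The fit was tested on simulated data. The genes named were a fixed list of cardiac currents, the 8 largest rises and falls past the threshold per comparison, genes at the limit of 10 and up to 6 partners past the threshold per comparison. Channel genes and lists were chosen with earlier results of these data known. Sensitivity to pseudocount, filter, scaling, weights, adjustment, joint fit, left-out hearts and, added after seeing the data, Y-linked reads was examined. Some genes are counted in the totals and are not reported here by name.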

Additional observations from a re-analysis of the deposited data

Results flagged for a closer look

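In the group of 4 Ft1sm22ko hearts, 41 named channel genes were examined for a heart far from the other 3 (gap over range above Dixon's 95% critical value), and 3 had one. Chance alone flags about 1 gene in 20. Kcne1 was at 1752 in heart d, against 2687, 2842 and 2827 in the others, with a gap of 0.858 of the range. Scn3b was at 123 in heart d, against 42.7 to 54.5 (0.853). Scn4a was at 36.4 in heart c, against 81.6 to 84.8 (0.934). Heart d is the Ft1sm22ko heart with Y-linked reads and with the highest lung marker sum of its group, 1454, and heart c has the lowest atrial marker sum, 2039. Their part in these values was not tested.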

How the results depend on the processing

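With a mean of at least 100 required, 35 channel genes were tested in Ft1ko and 36 in Ft1sm22ko against WT, and 4 were higher in each. The Bonferroni adjustment left 0 higher and 0 lower in every comparison. In Ft1sm22ko against WT, voom weights gave 4 higher and scaling to the total count 12, where the fit reported gave 7. Between the mutants, Y-linked reads as a term left 0 higher. Leaving out each heart in turn gave 5 to 12 higher and 13 to 20 lower in Ft1ko, 3 to 13 and 9 to 16 in Ft1sm22ko, and 0 to 18 and 0 to 4 between the mutants. Over all genes tested the same ranges were 1478 to 3033 and 975 to 2565 in Ft1ko. They were 1448 to 2914 and 1267 to 2638 in Ft1sm22ko, and 0 to 1212 and 0 to 1134 between the mutants. The cause of these shifts was not tested, apart from the fewer genes or hearts that the setting leaves. The other settings (pseudocount 0.5 or 5, no filter, upper quartile scaling, centring on the median, all 10 hearts in 1 fit) left each count within 1.5 times the reported one, and no direction of a called gene reversed. No paired analysis was possible because the recovered hearts carry no replicate number. Totals used for scaling lack the 367 abundant genes not resolved. With 2298136 to 5904368 reads per WT heart, changes of genes under about 10 normalised counts in WT are limited by counting error.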
